A study of Bos taurus and Bos grunniens and Bubalus bubalis with 15 samples.

Results

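The translation initiation and elongation factors were followed in longissimus dorsi, a back muscle, of 15 animals. They were taken as the probe sets whose single gene symbol on the array begins with EIF1 to EIF6, EEF1 or EEF2, regulators such as the 4E-binding proteins included. This rule gave 73 of 24128 probe sets, for 50 of 9156 genes with a single symbol, and used no measured value to find them. Each gene was then read on its brightest probe set, by the mean over the 15 arrays, and 45 of the 50 were bright enough to test. The 5 that were not are EIF2A, EIF2AK2, EIF2AK3, EEF1AKMT3 and EEF2KMT. A further 2 probe sets, shared between EIF4EBP3 and ANKHD1, carry 2 symbols and were left out.

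The animals were slaughtered at 36 months of age and fall into 5 groups of 3. Of Qinchuan cattle, a Chinese beef breed, the study took females, castrated males and intact males that were close in birth date and genetic background and were raised alike. The others were Qinghai yak and Guangxi buffalo, for which the labels give no sex, and for the castrated males no age at castration is given. Within a group the labels name 3 biological replicates, and each animal's RNA was hybridised to 1 bovine Affymetrix array. Yak and buffalo transcripts were thus read with probes made for cattle sequence, and a lower transcript level and weaker binding to a bovine probe cannot be told apart in these 2 species. Values below are the deposited intensities of the probe sets, on a linear scale. An intensity depends on the probe set, so levels are compared between groups for 1 probe set and never between genes.

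Protein synthesis starts when the factor eIF2 brings the initiator tRNA to the small ribosomal subunit, which the large scaffold eIF3 and the small factors eIF1 and eIF1A hold open. The cap-binding eIF4E, the scaffold eIF4G and the helicase eIF4A load that complex on the messenger RNA, and eIF4E-binding proteins such as the product of EIF4EBP1 compete with the scaffold for eIF4E until the kinase mTOR releases them. After the start codon is found, eIF5 triggers hydrolysis of the GTP on eIF2, eIF2B reloads eIF2, and eIF6 keeps free large subunits from joining early. In elongation eEF1A delivers each aminoacyl-tRNA, the eEF1B proteins recharge it with GTP, and eEF2 moves the ribosome on unless the kinase of EEF2K inactivates it. Adult skeletal muscle fibres are known for using the eEF1A2 isoform in place of eEF1A1, which other cells of the tissue use.

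The median log2(intensity + 16) of an array was 6.71 to 6.81. The upper quartile of intensity was 217 to 224 on the buffalo arrays and 230 to 253 on all others. Of 14 skeletal muscle markers 12 had a named probe set, none below an intensity of 4161 on any array. By mean correlation with the other arrays of its group, intact male 1 stood lowest at 0.931, and intact male 3 was next at 0.945. The summed intensity of 12 macrophage markers was 6396 to 32443 in intact males, against 2629 to 4271 for castrated males and 1434 to 2623 for females. That of 9 fibroblast markers was 32237 to 43207, 11491 to 12187 and 8702 to 10635 in the same order. None of these markers was listed at 0. In bulk tissue, more cells of a type and more RNA per cell cannot be told apart. Tests are limma fits over all 14409 probe sets tested, with Benjamini-Hochberg adjusted p and a threshold of 0.05, and a gene "rose" or "fell" in the group named where it passed.

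Differences between species made up most of what was seen in these genes, and differences among the cattle groups were few. In a test for any difference among the 5 groups, 31 of the 45 genes passed, near the 63% of all probe sets tested that did. Within the 9 cattle arrays only EEF1A1 passed the same kind of test, against 1.96% of all probe sets. EEF1A1 kept that call without intact male 1 and without intact male 3, where EIF4A1 passed too, and lost it without any 1 of the other 7 cattle arrays.

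**Figure D1:**
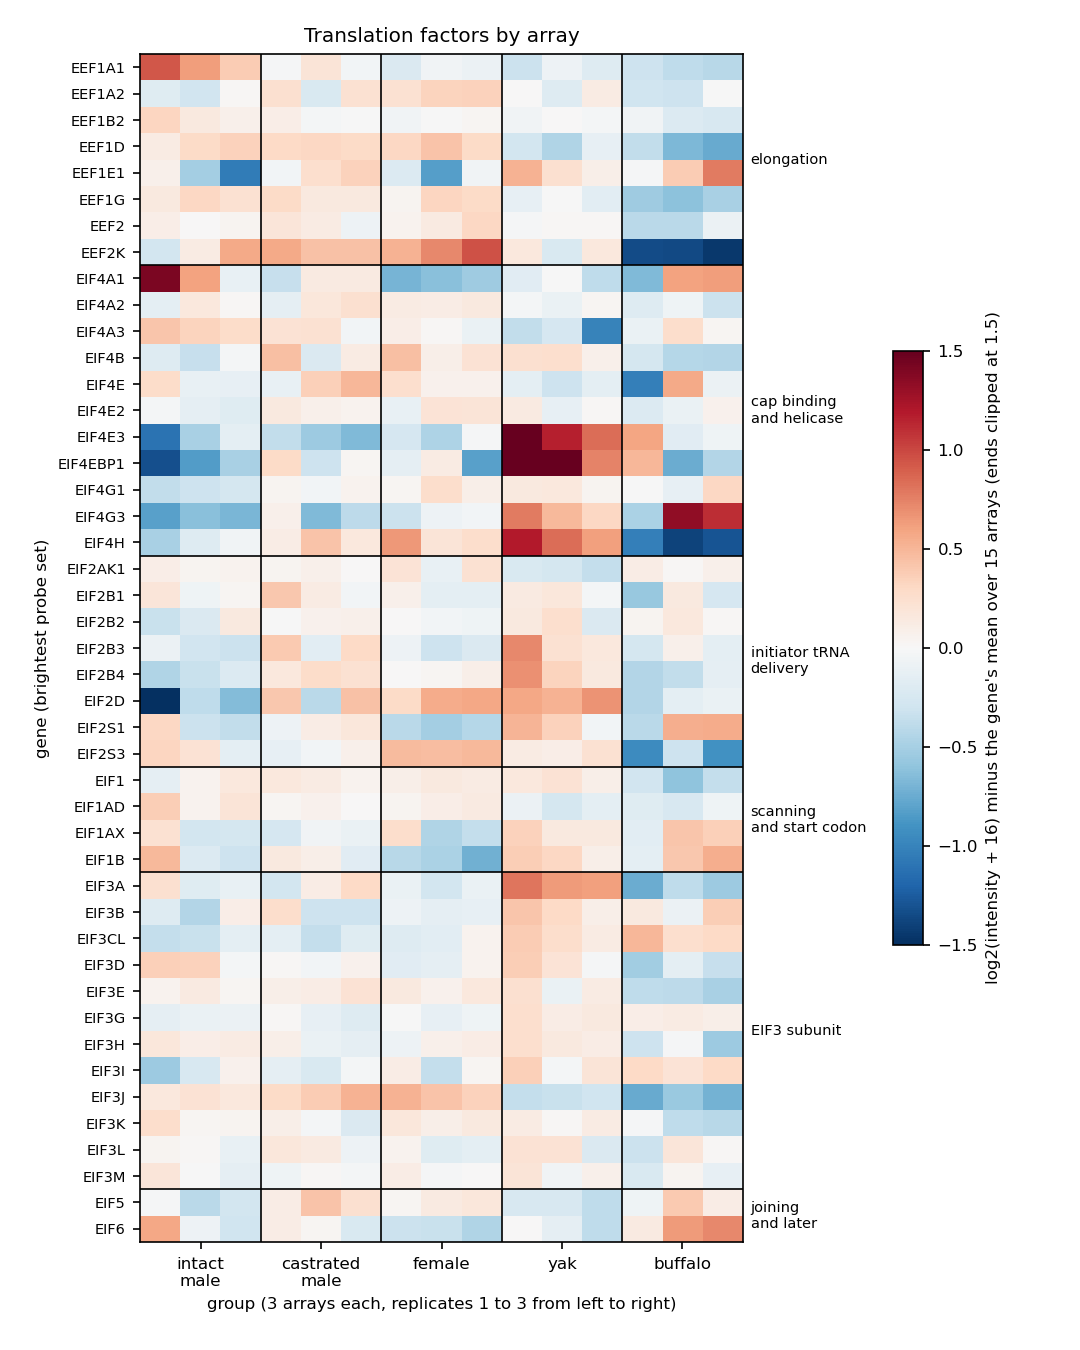
Heat map of the 45 translation factors tested (rows, by role) on the 15 arrays (columns, 3 per group), as log2(intensity + 16) minus each gene's mean over all arrays, with colours clipped at 1.5 either way. EEF1A1 is highest in the intact males, EIF4E3 and EIF4EBP1 are highest in yak, and EEF2K and EIF4H are lowest in buffalo.

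The elongation factor that delivers aminoacyl-tRNA, EEF1A1, was the 1 factor to fall in females against intact males. Its intensity was 13296, 10762 and 9040 in intact males 1, 2 and 3, 6859, 7952 and 6754 in castrated males, 5976, 6693 and 6563 in females, 5583, 6594 and 6086 in yak and 5621, 5366 and 5226 in buffalo. All 3 intact males lay above every other array, and the females lay below all castrated males. After quantile normalisation the intact males were still apart, but female 2 (6608) lay above castrated male 3 (6492). The mean was 6410 ± 382 in females and 11033 ± 2141 in intact males (SD, n = 3), a log2 fold change of -0.77 with an SE of 0.14, adjusted p = 0.0231 in limma. Castrated males, at 7188 ± 663, did not overlap the intact males either, but their difference from intact males did not pass (log2 fold change of -0.60 with an SE of 0.14, adjusted p = 0.0661). The call in females rests on few arrays: adjusted p was 0.0677 without intact male 2 and 0.0646, 0.0765 and 0.0759 without female 1, 2 or 3. It was 0.0653 with only the 6 arrays of the 2 groups and 0.103 for the mean of its 2 tested probe sets. The castrated males passed only without intact male 3 (adjusted p = 0.017). In all, 1 of 45 factors fell in females, where 3.37% of all probe sets were lower, and 0 rose.

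The array holds 4 further probe sets for EEF1A1, and they did not all show the same size of difference. The second of the 2 ordinary probe sets read 1551, 1263 and 933 in intact males, 963, 1070 and 1036 in castrated males and 754, 1160 and 1219 in females, so that intact male 3 lay below all castrated males and below 2 of the females. Its log2 fold change was -0.26 (SE 0.23, adjusted p = 0.497) for females against intact males. The other 3 are control probe sets that Affymetrix placed along the transcript, named 5, M and 3 after its ends and middle, and stand outside the fit over all probe sets. The one named 5 read 8965, 7773 and 5387 in intact males, 3237, 4260 and 3110 in castrated males and 2983, 2908 and 3216 in females, with the intact males apart from all others. Its mean log2 difference from intact males was -1.04 in castrated males and -1.25 in females, against -0.50 and -0.46 for the set named M and -0.26 and -0.29 for the set named 3. The ratio of the set named 5 to the set named 3 was accordingly 5.24 to 5.95 on intact male arrays, against 2.78 to 3.84 for the castrated males and 2.32 to 3.79 for the females. That ratio was 2.56 to 2.83 in yak, and in buffalo it varied widely, at 6.28, 3.43 and 2.36. The same ratio for actin, turned to 3 over 5, was 1.17 to 1.48 in intact males and 1.22 to 1.33 in the other cattle. The macrophage and fibroblast marker sums given above were highest on the same 3 arrays as EEF1A1, and their part in its level was not tested. Of 12 macrophage markers tested 8 fell in females against intact males, and of 8 fibroblast markers 7 did, where 3.37% of all probe sets were lower.

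**Figure D2:**
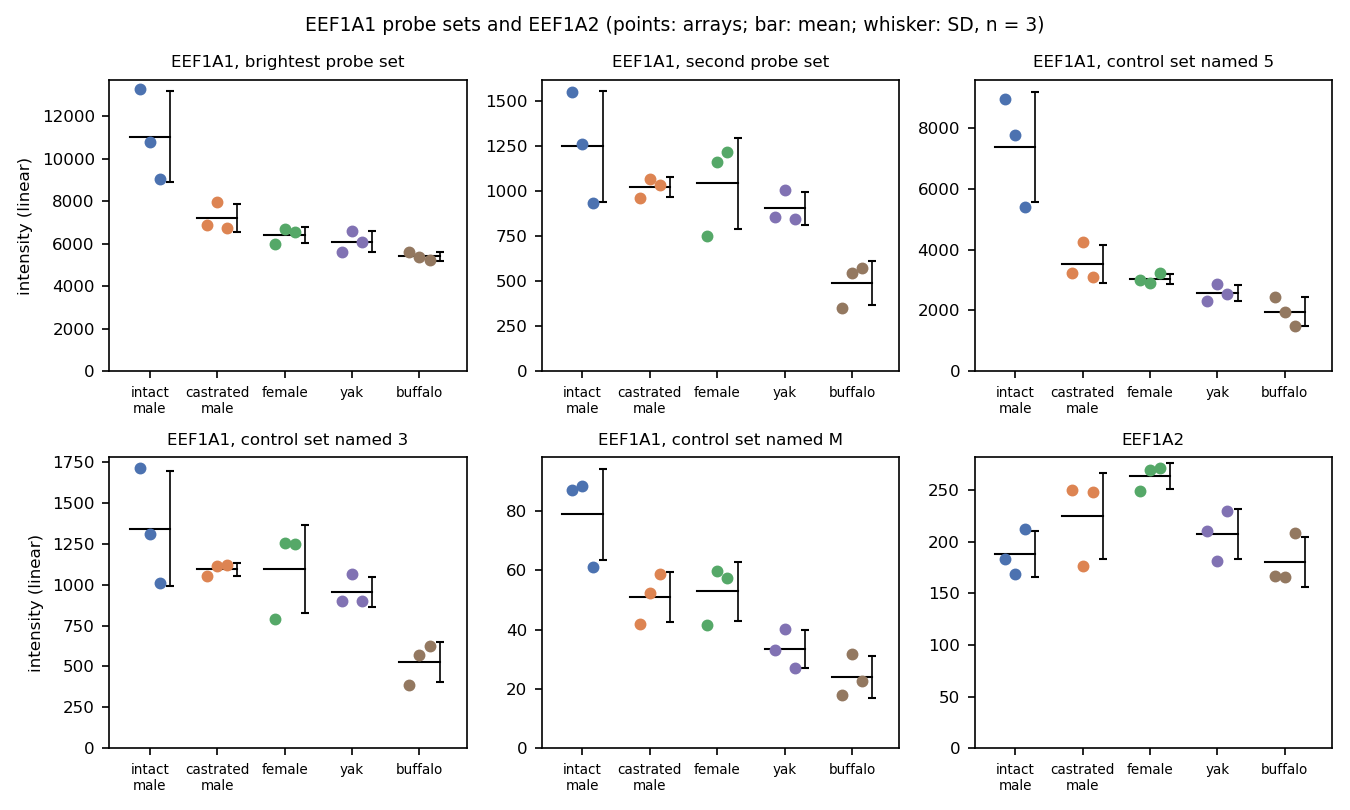
Intensity (linear axes from 0, different for each panel) of the 5 EEF1A1 probe sets and of EEF1A2 in the 5 groups, with points for arrays, a bar for the mean and a whisker for the SD (n = 3). The intact males stand apart from the other cattle on the brightest set and the control sets named 5 and M, and not on the second set or the control set named 3.

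The muscle isoform of the same factor, EEF1A2, did not pass between any 2 groups or species, though it was among the 31 that passed the test over 5 groups (adjusted p = 0.0425). It read 184, 169 and 213 in intact males, 250, 177 and 248 in castrated males, 249, 269 and 272 in females, 210.5, 181 and 229.5 in yak and 167, 166 and 208 in buffalo. The females lay above all intact males, the opposite order to EEF1A1, and castrated male 2 lay within the range of the intact males. Females against intact males gave a log2 fold change of 0.45 with an SE of 0.15, adjusted p = 0.0956. Against cattle, buffalo missed the threshold (log2 fold change of -0.29 with an SE of 0.12, adjusted p = 0.0583). The difference passed without castrated male 2 (adjusted p = 0.0171), without buffalo 3 (0.0346), and with the intact males left out (0.0189). It also passed with the replicate number as a block in the fit (0.0263).

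In initiation no factor passed in limma between cattle groups, and several that came nearest were higher in castrated males or females than in intact males. EIF2B4, a subunit of the exchange factor that reloads eIF2 with GTP, read 528, 575 and 632 in intact males, 814, 883 and 857 in castrated males, 732, 748 and 776 in females, 1183, 926 and 806 in yak and 535, 560.2 and 664 in buffalo. The 3 cattle groups did not overlap, with castrated males highest and intact males lowest (log2 fold change of 0.55 with an SE of 0.13, adjusted p = 0.0706, castrated against intact males), and the difference passed without intact male 3 (adjusted p = 0.0378). EIF5, which makes eIF2 release its GTP at the start codon, read 3327, 2539 and 2776 in intact males, 3642, 4508 and 3955 in castrated males, 3438, 3685 and 3772 in females, 2850, 2830 and 2583 in yak and 3198, 4425 and 3626 in buffalo. Every castrated male and female lay above every intact male (log2 fold change of 0.49 with an SE of 0.13, adjusted p = 0.0996, castrated against intact males), and castrated males passed without intact male 1 (adjusted p = 0.0492). The second EIF5 probe set, not used in the count, read 561, 504 and 579 in intact males, 937, 1070 and 1180 in castrated males and 756, 902 and 909 in females. On that probe set, chosen after its values were seen, EIF5 rose in castrated males by a log2 fold change of 0.93 (SE 0.15, adjusted p = 0.0218) and in females by 0.63 (SE 0.15, adjusted p = 0.0434).

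The intact males differed widely among themselves in EIF2D and EIF4A1. EIF2D, which can place initiator tRNA on the ribosome without eIF2, read 56.1, 196 and 160.2 in intact males, 351, 192 and 358 in castrated males, 323, 390.1 and 398 in females, 397, 381 and 427 in yak and 188, 235 and 241 in buffalo. Intact male 1 was the lowest of all arrays, and the females lay above all intact males (log2 fold change of 1.47 with an SE of 0.38, adjusted p = 0.0563, females against intact males). EIF4A1, the helicase that unwinds the leader of messenger RNAs, read 2046, 1163 and 699.8 in intact males, 594, 836 and 837 in castrated males, 462, 486 and 521 in females, 674, 754 and 578 in yak and 476, 1166 and 1186 in buffalo. Intact males 1 and 2 were above all other cattle, the females below them, and intact male 3 within the range of the castrated males (log2 fold change of -1.25 with an SE of 0.33, adjusted p = 0.0575, females against intact males). Both passed in females without intact male 3 (adjusted p = 0.0378 for EIF2D and 0.00822 for EIF4A1). After quantile normalisation EIF4A1 passed as well (log2 fold change -1.20), so that 2 factors fell, against 6.34% of all probe sets called in either direction. The macrophage marker sum also ranged widely in the intact males, from 6396 to 32443, and its part in EIF4A1 was not tested.

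EIF4EBP1, the repressor of cap-dependent initiation, read 345, 489.9 and 629.7 in intact males, 1084, 713 and 904 in castrated males, 804, 966 and 496 in females, 3364, 2550 and 1493 in yak and 1263, 523 and 648 in buffalo. Castrated males lay above all intact males, but the groups spread widely and the difference did not pass (log2 fold change of 0.88 with an SE of 0.29, adjusted p = 0.147). Females overlapped both other cattle groups.

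Without any 1 array, the number of factors that passed for castrated against intact males was 0, except for 1 without intact male 1 (EIF5) and 3 without intact male 3 (EEF1A1 and EIF4A1, which fell, and EIF2B4, which rose). Over all arrays it was 0, where 1.46% of all probe sets passed, with 9 at an unadjusted p under 0.05, or 20% of the 45 against 20.5% of all probe sets. The groups did not overlap in 10 of 45, against 24.8% of all. For females against intact males 1 of 45 passed, against 5.5% of all probe sets. In that comparison 14 had an unadjusted p under 0.05, against 27.7%, and 17 did not overlap, against 33.1%. The count was 5 without intact male 3 (EIF2D, EIF4H and EEF2K higher, EEF1A1 and EIF4A1 lower) and 0 without intact male 2 or any 1 female. For fits with an array left out, the share of all probe sets that passed is not given. The median log2 fold change of the 45 was 0.07 in castrated males and 0.09 in females, beside 0.00 and 0.01 over all probe sets tested.

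Between females and castrated males 0 of 45 factors passed in limma, with 4 at an unadjusted p under 0.05, against 0.0208% and 7.55% of all probe sets. The groups did not overlap in 8 of 45, where 17.5% of all probe sets did not. EIF2S3, the GTP-binding subunit of eIF2, whose gene lies on the X chromosome, read 1255, 1165 and 902 in intact males, 919.9, 976 and 1063 in castrated males, 1395, 1387 and 1411 in females, 1096, 1073 and 1175 in yak and 515, 809 and 526 in buffalo. Every female lay above every male of both cattle groups, and the females hardly varied, but the difference did not pass over all probe sets (log2 fold change of 0.50 with an SE of 0.15, adjusted p = 0.569, females against castrated males). The second EIF2S3 probe set showed the same order, with 387, 308 and 348 in females against 264, 234 and 194 in intact and 203, 212 and 223 in castrated males. On that set the log2 fold change was 0.66 (SE 0.14, adjusted p = 0.342).

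The other 2 that came nearest to the threshold between females and castrated males pointed the other way. EIF2S1, the eIF2 subunit that is phosphorylated under stress, read 1076, 687 and 667 in intact males, 819, 936 and 977 in castrated males, 651, 604 and 641 in females, 1244, 1106 and 838 in yak and 653, 1266 and 1280 in buffalo. All females lay below all other cattle arrays (log2 fold change of -0.51 with an SE of 0.19, adjusted p = 0.61). EIF1B, a close relative of the start codon factor EIF1, read 1419, 879 and 816 in intact males, 1125, 1080 and 899.5 in castrated males, 754, 721 and 609 in females, 1311, 1260 and 1075 in yak and 909, 1342 and 1490 in buffalo. The females were again below every male (log2 fold change of -0.56 with an SE of 0.22, adjusted p = 0.623). EIF2S1 and EIF2S3, 2 subunits of 1 complex, thus stood on opposite sides in the females, and neither passed.

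In yak 17 of 45 factors differed from cattle, 9 higher and 8 lower, where 29.1% of all probe sets tested passed (13.2% higher and 15.9% lower). Cattle here is the mean of its 3 group means. By role, 4 of 11 cap-binding and helicase factors rose and 1 fell, 3 of 12 eIF3 subunits rose and 1 fell, and 0 of 8 elongation factors rose and 3 fell. Of 8 factors of initiator tRNA delivery 2 rose and 1 fell, of 4 scanning factors 1 fell, and of EIF5 and EIF6 the first fell. After quantile normalisation the same 17 passed, again 9 and 8, with 27.5% of all probe sets called (14.5% higher and 13% lower). The median log2 fold change was 0.07 for the 45 and -0.02 for all probe sets tested. The count fell to 10 without yak 1 and to 11 without yak 2, and to 13 with the intact males left out of the cattle reference, of which 11 were among the 17. For these fits the share of all probe sets that passed is not given, so the drop cannot be read as particular to the factors.

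The largest rises in yak were in cap binding. The values of EIF4EBP1 given above were higher in all 3 yak than in any other array (log2 fold change of 1.77 with an SE of 0.30, adjusted p = 0.000906), with a mean of 2469 ± 938 in yak (SD, n = 3) and yak 3 the lowest of them. EIF4E3, an atypical member of the cap-binding family, read 2149, 1487 and 1182 in yak, 295, 464 and 590.3 in intact males, 503, 444 and 406 in castrated males, 548, 471 and 646 in females and 996, 578 and 626 in buffalo. Again each yak lay above every other array, and buffalo 1 above all cattle (log2 fold change of 1.68 with an SE of 0.22, adjusted p = 0.000169). These separations from buffalo hold for the values as deposited. After quantile normalisation buffalo 1 lay above yak 3 in both genes, at 1562 against 1527 for EIF4EBP1 and 1236 against 1205 for EIF4E3. Its second probe set rose too, by 1.60 (SE 0.30, adjusted p = 0.00164). The canonical cap-binding factor EIF4E did not pass in yak, at a log2 fold change of -0.33 (SE 0.24, adjusted p = 0.323 in limma). As deposited the yak, at 1355, 1208 and 1351, lay below all cattle, of which intact male 3 was lowest at 1378. After quantile normalisation they overlapped, with yak 3 at 1378 and intact male 2 at 1319.

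EIF4H, which assists the helicase, read 1857, 1457 and 1247 in yak, 573, 705 and 776 in intact males, 876, 1091 and 902 in castrated males, 1276, 927 and 974 in females and 388, 298 and 319 in buffalo. Yak were high, buffalo lowest of all, and female 1 reached into the yak range (log2 fold change of 0.76 with an SE of 0.15, adjusted p = 0.00245). The scaffold EIF4G3 read 1455, 1188 and 1052 in yak, 474, 542 and 517 in intact males, 888, 526 and 637 in castrated males, 670.1, 798 and 822 in females and 603, 2150 and 1843 in buffalo. Yak stood above all cattle, with a wide spread in buffalo, where buffalo 1 lay within the cattle range (log2 fold change of 0.92 with an SE of 0.29, adjusted p = 0.0302). That call was lost without castrated male 2 (adjusted p = 0.0509), without yak 1, 2 or 3 (0.143, 0.0884 and 0.0517) and with the intact males left out (0.108). EIF3A, the largest subunit of eIF3, read 2141, 1922 and 1880 in yak, 1448, 1076 and 1135 in intact males, 1012, 1327 and 1514 in castrated males, 1138, 1010 and 1142 in females and 724, 933 and 832 in buffalo. As deposited, the 3 species did not overlap, with yak highest and buffalo lowest (log2 fold change of 0.73 with an SE of 0.13, adjusted p = 0.00156). After quantile normalisation the yak were still highest, but buffalo 2 (1074) lay above female 2 (974).

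The factors that fell in yak were led by EIF4A3, EIF3J and EEF1D. EIF4A3, a helicase relative of the exon junction complex, read 656, 712 and 416 in yak, 1143, 1074 and 1033 in intact males, 989.7, 1002 and 826 in castrated males, 910.5, 860 and 791 in females and 791, 1029 and 867 in buffalo. All yak lay below all other arrays, yak 3 farthest (log2 fold change of -0.70 with an SE of 0.15, adjusted p = 0.00354), and on its second probe set the log2 fold change was -0.22 (SE 0.15, adjusted p = 0.3). EIF3J, a loosely bound subunit of eIF3, read 1254, 1275 and 1305 in yak, 1800, 1880 and 1793 in intact males, 1967, 2110 and 2311 in castrated males, 2316, 2171 and 2055 in females and 945, 1087 and 977 in buffalo. As deposited, its 3 species formed 3 separate bands with little spread, cattle above yak above buffalo (log2 fold change of -0.67 with an SE of 0.09, adjusted p = 0.000126). After quantile normalisation yak (1134, 1259 and 1326) and buffalo (1169, 1262 and 1125) overlapped, both below all cattle.

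EEF1D, a subunit of the complex that recharges eEF1A, read 2569, 2268 and 2867 in yak, 3380, 3787 and 3948 in intact males, 3838, 3850 and 3804 in castrated males, 3871, 4183 and 3790 in females and 2403, 1942 and 1835 in buffalo. Yak and buffalo lay below all cattle and overlapped each other (log2 fold change of -0.58 with an SE of 0.10, adjusted p = 0.000843). EEF1A1 fell as well (log2 fold change of -0.39 with an SE of 0.10, adjusted p = 0.0109), though the yak overlapped the females. Without yak 1 its adjusted p was 0.0756, and with the intact males left out the log2 fold change was -0.16 and the adjusted p 0.145. Its second probe set did not pass (-0.26, adjusted p = 0.308), and neither did the mean of both (-0.32, adjusted p = 0.0803). EIF2AK1, the kinase that phosphorylates eIF2 when haem is short, read 102, 99.3 and 92 in yak, 133, 126 and 127 in intact males, 126, 129 and 123 in castrated males, 144, 112 and 146 in females and 133, 124 and 129.9 in buffalo. The yak were lowest, by a small margin over female 2 (log2 fold change of -0.35 with an SE of 0.08, adjusted p = 0.00418), and its second probe set had a log2 fold change of 0.02. The other genes that passed in yak were these: EIF3CL, EIF2B3, EIF2B4 and EIF3G rose, with log2 fold changes from 0.26 to 0.46, and EIF5, EEF1G and EIF1AD fell, from -0.33 to -0.28.

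**Figure D3:**
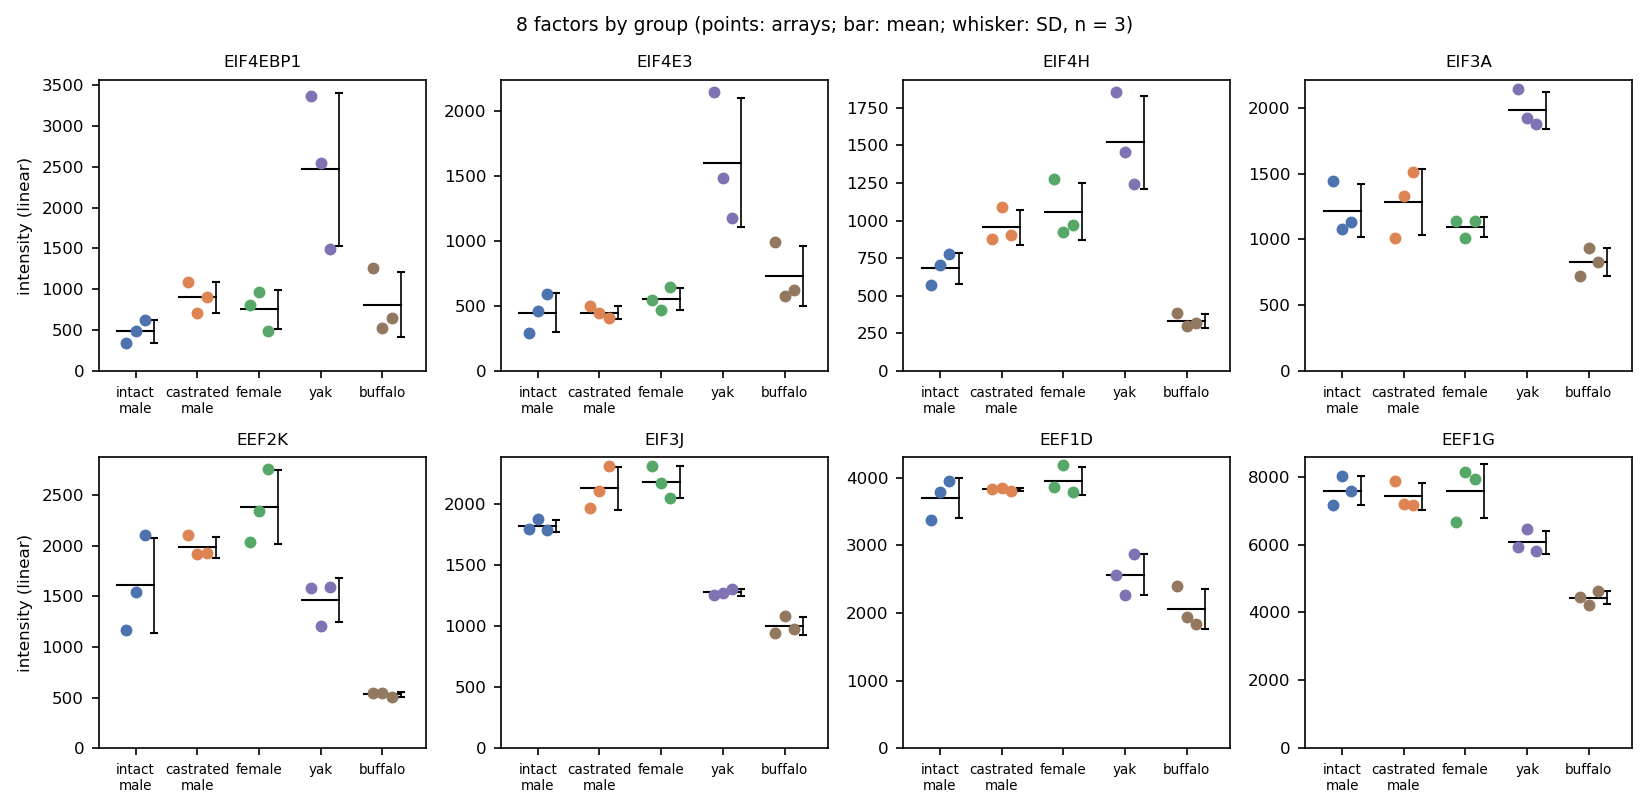
Intensity (linear axes from 0, different for each panel) of 8 factors in the 5 groups, with points for arrays, a bar for the mean and a whisker for the SD (n = 3). The yak mean is highest for EIF4EBP1, EIF4E3, EIF4H and EIF3A, and the buffalo mean lowest for EIF4H, EIF3A, EEF2K, EIF3J, EEF1D and EEF1G.

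In buffalo 24 of 45 factors differed from cattle, 6 higher and 18 lower, where 51.4% of all probe sets tested passed (23% higher and 28.4% lower). This lean toward lower values depends on the scaling. After quantile normalisation 23 factors passed, 14 higher and 9 lower, with 54.7% of all probe sets called (30.6% higher and 24.2% lower), and 15 of the 24 were among them. Bright probe sets read low on the buffalo arrays in general: over the brightest 10% of all probe sets tested, 1441 in number, the median log2 fold change was -0.25, and it was 0.00 after quantile normalisation. Of the 45 factors 23 belong to these, and their median was -0.34, or -0.08 after quantile normalisation, and 17 of them passed, where 54.3% of the 1441 did. Over all 45 the median was -0.11 and 0.00, and over all probe sets tested -0.03 and 0.06. In both scalings 9 factors fell, EEF2K, EIF4H, EIF3J, EIF2S3, EEF1D, EEF1G, EEF1A1, EIF3E and EIF1, and 6 rose, EIF4G3, EIF6, EEF1E1, EIF4E3, EIF3CL and EIF3I. The other 9 that fell without quantile normalisation, EIF3A, EIF4B, EEF2, EIF3D, EIF3H, EIF3K, EIF4A2, EIF1AD and EEF1B2, did not pass with it. Those that rose only with it were EIF1B, EIF1AX, EIF2B2, EIF2S1, EIF3B, EIF3G, EIF4G1 and EIF5. From the values as deposited, the count was 15 without buffalo 3, 1 higher and 14 lower, and the share of all probe sets in that fit is not given.

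**Figure D4:**
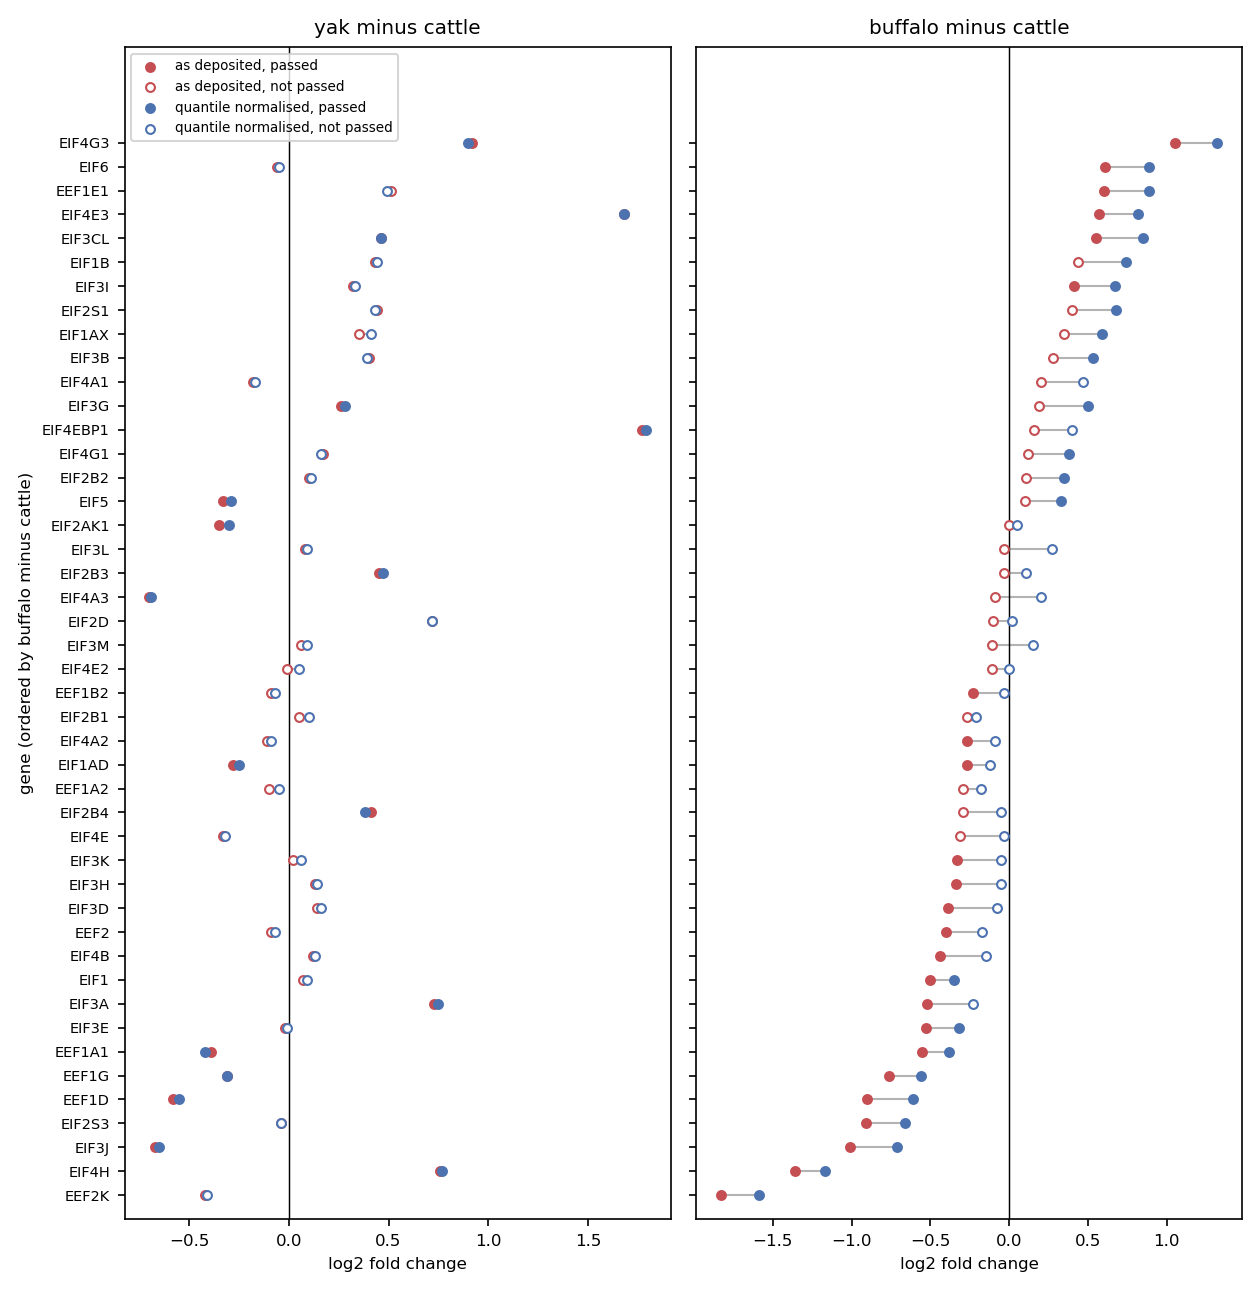
Log2 fold change (horizontal axes) of the 45 factors tested, for yak and buffalo against cattle, from the values as deposited (red) and after quantile normalisation (blue), filled where the adjusted p was under 0.05; genes are ordered by buffalo minus cattle as deposited. The paired points nearly coincide in yak, and in buffalo the quantile-normalised points lie to the right for each gene, so that 14 rose and 9 fell in place of 6 and 18.

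Of the 8 elongation genes 6 fell in buffalo, EEF2K among them, and 1 rose, or 4 and 1 after quantile normalisation, where 28.4% of all probe sets were lower, or 24.2% after quantile normalisation. EEF2K, the kinase that inactivates eEF2, read 549.8, 545 and 508 in buffalo, 1173, 1548 and 2106 in intact males, 2102, 1924 and 1926 in castrated males, 2039, 2344 and 2762 in females and 1588, 1210 and 1590 in yak. Buffalo lay far below every other array and hardly varied (log2 fold change of -1.83 with an SE of 0.15, adjusted p = 7.60e-07). On a second, dimmer probe set of EEF2K the buffalo arrays, at 178, 276 and 197, overlapped the cattle, and the log2 fold change was -0.32 (SE 0.24, adjusted p = 0.291).

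EEF1G, another subunit of the recharging complex, read 4453, 4228 and 4623 in buffalo, 7170, 8010 and 7585 in intact males, 7885, 7186 and 7179 in castrated males, 6675, 8123 and 7933 in females and 5932, 6459 and 5806 in yak. Cattle, yak and buffalo followed one another without overlap (log2 fold change of -0.76 with an SE of 0.07, adjusted p = 2.05e-06). Its partner EEF1B2 read 4796, 4324 and 4239 in buffalo, 6266, 5518 and 5246 in intact males, 5356, 4907 and 4963 in castrated males, 4801, 4983 and 5117 in females and 4808, 5020 and 4874 in yak. The differences were small, with the highest buffalo just below the lowest female (log2 fold change of -0.23 with an SE of 0.07, adjusted p = 0.0126), and the call was lost after quantile normalisation (log2 fold change -0.03) and without buffalo 2 or 3 (adjusted p = 0.0575 and 0.0686). EEF1D, at the values given above, fell in buffalo too (log2 fold change of -0.90 with an SE of 0.10, adjusted p = 6.34e-06). EEF1A1 fell too (log2 fold change of -0.55 with an SE of 0.10, adjusted p = 0.000423), as it did on its second probe set, at -1.16 (SE 0.19). EEF1E1, in spite of its name a scaffold protein of the tRNA synthetase complex, was the 1 gene of this group that rose.

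EEF1E1 read 736, 972 and 1289 in buffalo, 786, 519 and 350 in intact males, 726, 886 and 949.8 in castrated males, 642, 413 and 719 in females and 1079, 884 and 792 in yak. Buffalo overlapped the castrated males and intact male 1 (log2 fold change of 0.60 with an SE of 0.23, adjusted p = 0.0436), and leaving out any 1 of 9 arrays took the call away. These 9 were intact males 2 and 3, castrated males 1 and 2, female 2, yak 2 and 3 and buffalo 2 and 3. The call was also lost with all intact males left out (adjusted p = 0.0746) and with the replicate number as a block (0.0612). The adjusted p was up to 0.233 over all alternatives.

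In initiation EIF4H was the factor that fell most in buffalo on its brightest probe set (log2 fold change of -1.36 with an SE of 0.15, adjusted p = 7.80e-06). Its 3 probe sets disagreed: a second had a log2 fold change of -0.44 (SE 0.20), and the last, dimmer one rose by 0.45 (SE 0.09, adjusted p = 0.00133). EIF2S3 fell on its brightest probe set (log2 fold change of -0.91 with an SE of 0.14, adjusted p = 0.000121) and rose on the other (log2 fold change 0.49, SE 0.13, adjusted p = 0.00768), so that no direction can be given for the gene in buffalo. EIF3J, which has a single probe set, fell (log2 fold change of -1.01 with an SE of 0.09, adjusted p = 7.41e-07). EIF1, the factor that guards start codon choice, read 7477, 6018 and 7143 in buffalo, 8277, 9427 and 10145 in intact males, 10219, 9953 and 9499 in castrated males, 9722, 10074 and 9966 in females and 10218, 10599 and 9703 in yak. Cattle and yak overlapped and, as deposited, every buffalo lay below them (log2 fold change of -0.50 with an SE of 0.07, adjusted p = 8.31e-05). After quantile normalisation buffalo 1 (7952) lay above intact male 1 (7801).

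EIF4A2, the close relative of the helicase EIF4A1, read 6057, 6591 and 5501 in buffalo, 6261, 7679 and 7013 in intact males, 6273, 7750 and 8147 in castrated males, 7516, 7473 and 7623 in females and 6774, 6440 and 7050 in yak. The groups overlapped, and the small fall in buffalo (log2 fold change of -0.27 with an SE of 0.09, adjusted p = 0.018) was lost after quantile normalisation (log2 fold change -0.09) and without buffalo 3 (adjusted p = 0.113).

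Of the 12 eIF3 subunits 6 fell in buffalo and 2 rose, where 28.4% of all probe sets were lower and 23% higher. After quantile normalisation 2 fell and 4 rose, where 24.2% of all probe sets were lower and 30.6% higher. EIF3CL, a copy of the core subunit gene EIF3C, read 1709, 1439 and 1485 in buffalo, 938, 954 and 1085 in intact males, 1082, 936 and 1057 in castrated males, 1050, 1077 and 1252 in females and 1570, 1446 and 1315 in yak. Yak and buffalo overlapped and stood above all cattle (log2 fold change of 0.55 with an SE of 0.10, adjusted p = 0.000563 in buffalo, and log2 fold change of 0.46 with an SE of 0.10, adjusted p = 0.00527 in yak). After quantile normalisation both still stood above all cattle, but buffalo (2070, 1697 and 1710) lay above yak (1406, 1429 and 1332). EIF6, the anti-joining factor, read 698, 996 and 1059 in buffalo, 954, 601 and 515 in intact males, 689, 650.2 and 540.1 in castrated males, 503, 501 and 461 in females and 638, 576 and 485 in yak. Buffalo was high except for overlap with intact male 1 (log2 fold change of 0.61 with an SE of 0.18, adjusted p = 0.0108), and the call was lost without buffalo 2 or 3 (adjusted p = 0.0561 and 0.0696). EIF4G3 rose (log2 fold change of 1.05 with an SE of 0.29, adjusted p = 0.00833) with buffalo 2 and 3 high, and without either the adjusted p was 0.0759 and 0.0631. EIF4E3 stood just inside the threshold (log2 fold change of 0.57 with an SE of 0.22, adjusted p = 0.0471) and was lost without any 1 of intact males 1 and 2, castrated males 1 to 3, females 1 and 2, yak 2, or buffalo 1 and 3. It was also lost for the mean of its probe sets (adjusted p = 0.0509), with the intact males left out (0.061) and with the replicate number as a block (0.0616). The adjusted p was up to 0.275 over all alternatives.

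Buffalo and yak differed directly in 22 of 45 factors, 4 higher and 18 lower in buffalo, where 42.2% of all probe sets tested passed (19.5% higher and 22.7% lower). After quantile normalisation 15 did, 5 higher and 10 lower, with 42.8% of all probe sets called (23% and 19.7%). The largest gap was EIF4H (log2 fold change of -2.12 with an SE of 0.18, adjusted p = 1.81e-06), followed by EIF4EBP1 (log2 fold change of -1.61 with an SE of 0.37, adjusted p = 0.00332), EEF2K (log2 fold change of -1.42 with an SE of 0.19, adjusted p = 6.53e-05), EIF3A (log2 fold change of -1.24 with an SE of 0.16, adjusted p = 5.91e-05) and EIF4E3 (log2 fold change of -1.11 with an SE of 0.27, adjusted p = 0.00541). In each of these 5 the buffalo arrays, as deposited, lay below all yak arrays on the brightest probe set. After quantile normalisation this held for EIF4H, EEF2K and EIF3A, while buffalo 1 lay above yak 3 for EIF4EBP1 and EIF4E3. The probe sets of EIF4H disagreed here too: a second fell by -1.05 (SE 0.24, adjusted p = 0.00353). The last, dimmer one had a log2 fold change of 0.24 (SE 0.12, adjusted p = 0.106). For EEF2K the second probe set pointed the other way, at 0.37 (SE 0.30), and the mean of both did not pass (adjusted p = 0.0756). The 4 that rose in buffalo were EIF6, EIF4A3, EIF5 and EIF2AK1, with log2 fold changes of 0.67, 0.61, 0.43 and 0.35. EIF6 lost the call without yak 2 or 3 (adjusted p = 0.0539 and 0.0845) or buffalo 2 or 3 (0.0775 and 0.09). EIF4A3 lost it without yak 3 or buffalo 2 (0.0653 and 0.0669) or with only the 6 arrays of the 2 groups (0.0599). EIF5 lost it without yak 3 or buffalo 2 (0.0639 and 0.0939).

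Genes with several probe sets show how far such species differences depend on the probe set that was read. Why the sets of a gene differ was not tested. Of the 45 genes 12 had 2 or more probe sets tested. For yak against cattle the brightest set passed in 8 of the 12, the others had the same sign in 7, and at least 1 of them passed as well in 3, EIF4E3, EIF4H and EIF5. For buffalo against cattle it passed in 6, the others had the same sign in 4, another passed in the same direction in 2, EEF1A1 and EIF4G3, and another passed in the opposite direction in 2, EIF2S3 and EIF4H. EIF3B and EIF2B3, which as deposited did not pass in buffalo on their brightest sets, fell on their second sets, by log2 fold changes of -1.03 (SE 0.15) and -0.90 (SE 0.13). After quantile normalisation the brightest EIF3B set rose (log2 fold change 0.53, adjusted p = 0.0102), while its second set fell (-1.08, adjusted p = 6.25e-05). EIF4E, which has 3 control probe sets, shows the same in 1 gene: on the buffalo arrays the ratio of the set named 3 to the set named M was 0.597 to 0.774, against 1.19 to 1.56 on all cattle and yak arrays. The mean log2 difference of buffalo from cattle was -0.83 on the set named 3, 0.13 on the set named M and 0.18 on the set named 5.

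**Figure D5:**
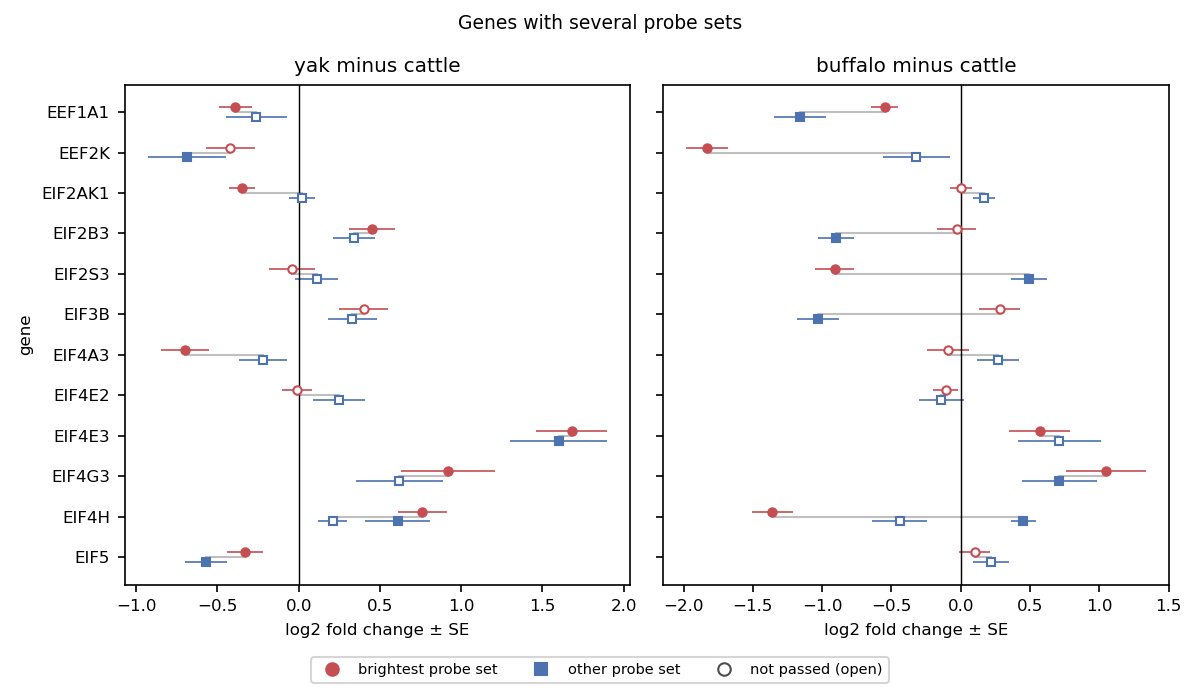
Log2 fold change with its SE (horizontal axes) for each tested probe set of the 12 factors with several, for yak and buffalo against cattle; circles mark the brightest probe set, squares the others, and open symbols those that did not pass. The points of a gene lie at most 0.55 apart in yak, for EIF4H, and in buffalo EIF3B, EIF2S3, EEF2K and EIF4H are spread over 1.31, 1.40, 1.51 and 1.81.

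Markers of other cells and fibre types also differed between the species. Of all probe sets tested, 15.9% were lower and 13.2% higher in yak, and 28.4% lower and 23% higher in buffalo. In yak 5 of 6 slow fibre markers fell, with a summed intensity of 48430 to 56662 against 63016 to 74839 for intact males, 69221 to 83010 for castrated males and 63823 to 66895 for females, while 0 of 5 fast fibre markers passed in limma, with 0 at an unadjusted p under 0.05. In buffalo 3 of 5 fast fibre markers fell, with sums of 45184 to 54362 against 47640 to 64987 for intact males, which overlapped them, 60016 to 67790 for castrated males and 64064 to 70222 for females. Of 8 fibroblast markers 7 fell in yak and 7 in buffalo, and of 12 macrophage markers 5 and 7 did, both against a cattle mean that holds the intact males. Of 6 slow fibre markers 2 rose and 1 fell in buffalo. Of 5 adipocyte markers 3 fell in yak, and in buffalo 2 rose and 2 fell. The part of these markers in the differences of the translation factors was not tested. With the intact males left out, 24 factors differed in buffalo, 20 of them among the 24 above. The share of all probe sets in that fit is not given, and the 51.4% above belongs to the fit with the intact males in.

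Other genes of the pathway, 54 chosen for their role, were read beside the factors, and 40 of them were tested. Between castrated and intact males 0 passed in limma, against 1.46% of all probe sets, with 7 at an unadjusted p under 0.05, against 20.5%, and 1 after quantile normalisation. Females against intact males gave 0, 6 and 1, where 5.5%, 27.7% and 6.34% of all probe sets passed. Females against castrated males gave 0 and 2, where 0.0208% and 7.55% did, and 0 after quantile normalisation. In yak 6 of 40 rose and 4 fell, where 13.2% of all probe sets were higher and 15.9% lower. In buffalo 7 rose and 13 fell, where 23% were higher and 28.4% lower, or 10 and 9 after quantile normalisation, where 30.6% and 24.2% were. In termination, ETF1, the factor that reads stop codons, rose in yak (log2 fold change of 0.76 with an SE of 0.16, adjusted p = 0.00342) and in buffalo (log2 fold change of 0.53 with an SE of 0.16, adjusted p = 0.0126). Upstream of EIF4EBP1, the mTOR complex activator RHEB rose in yak (log2 fold change of 0.33 with an SE of 0.10, adjusted p = 0.0239) and SESN1, a stress-induced restraint of mTOR, rose there too (log2 fold change of 1.29 with an SE of 0.34, adjusted p = 0.012). SESN2, of the same family as SESN1, fell in yak (log2 fold change of -0.47 with an SE of 0.12, adjusted p = 0.0091) and rose in buffalo (log2 fold change of 0.45 with an SE of 0.12, adjusted p = 0.00543). Of the 9 genes tested for mTORC1 and its inputs, 2 rose and 1 fell in yak, and 2 rose and 3 fell in buffalo. Poly(A)-binding PABPC1 fell in buffalo (log2 fold change of -0.61 with an SE of 0.19, adjusted p = 0.0183) as did its inhibitor PAIP2 (log2 fold change of -0.59 with an SE of 0.09, adjusted p = 0.000156), of which only PAIP2 passed after quantile normalisation. ATF4, the transcription factor made when eIF2 is phosphorylated, fell in buffalo (log2 fold change of -1.15 with an SE of 0.21, adjusted p = 0.00055), with mean intensities of 2972 ± 677 in buffalo and 5108 ± 2073, 7455 ± 475 and 7865 ± 1042 in intact males, castrated males and females (SD, n = 3). It was the 1 of 7 stress response genes tested that fell in buffalo, while 2 rose, and the median log2 fold change of the 7 was 0.07. In the mitochondria, where translation uses its own factors, the initiation factor MTIF2 rose in buffalo (log2 fold change of 0.92 with an SE of 0.08, adjusted p = 1.08e-06) and the release factor MTRF1 fell in yak (log2 fold change of -1.43 with an SE of 0.10, adjusted p = 6.28e-07) and buffalo (log2 fold change of -1.85 with an SE of 0.10, adjusted p = 9.56e-09).

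Some of these genes have close copies whose transcripts a probe set could share. EIF4A1 and EIF4A2, EIF1 and EIF1B, and EIF3CL and EIF3C are such pairs, EEF1A1 has many processed copies in mammalian genomes, and the brightest EIF4A3 probe set carries the suffix that Affymetrix gives to sets shared by several transcripts. Their values are uncertain to that extent. With 3 arrays a group, each p-value sets a group difference against the spread between these animals, pooled over the groups of the fit.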

How the data were processed

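RNA of longissimus dorsi muscle from 15 animals was labelled and hybridised to bovine Affymetrix arrays, 1 animal an array, per the labels' protocols. The deposited values are probe set intensities on a linear scale that the authors summarised. How they corrected background and normalised the arrays, and with which software, the sources used here do not state. Here log2(intensity + 16) was used with no further normalisation. Control probe sets (112) and those with a mean over the 15 arrays below the 40th percentile were left out, which left 14409. Symbols come from the platform's annotation, which gave 1 symbol for 13292 of the other 24016 probe sets, several for 86 and none for 10638.

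Groups came from the sample labels. Tests used limma 3.58.1 in R 4.3.3 (lmFit, eBayes with trend) with Benjamini-Hochberg adjustment over all 14409 probe sets. Comparisons of cattle groups were fitted on the 9 cattle arrays, and those of species on all 15, so that yak and buffalo share the cattle arrays as reference. The script was tested on simulated data. The alternatives were quantile normalisation, 1 or 64 added before log2, no filter, the mean of a gene's tested probe sets, the replicate number as a block, fewer groups in the fit, the intact males left out, and each array left out in turn.

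The members and lists were chosen with earlier results of these data known. Values on every array are given for the 5 brightest genes, for all EEF1A and EIF4EBP genes tested, and per comparison for up to 5 genes called with the largest change each way, or the 3 with the smallest p where fewer than 3 were called. Genes of other lists were named up to 3 a list and comparison by smallest p among those called. The number of arrays limits the precision.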

Additional observations from a re-analysis of the deposited data

How the results depend on the processing

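The counts of translation factors that passed were small among the cattle groups and moved with the processing. For castrated against intact males the count of 0 became 1 with the mean of a gene's probe sets, and ranged from 0 to 3 with 1 array left out. For females against intact males the count of 1 became 2 after quantile normalisation, 0 with the mean of a gene's probe sets and 0 with only the 6 arrays of the 2 groups, and ranged from 0 to 5 with 1 array left out. For females against castrated males it was 0 in every alternative run. For any difference among cattle groups, the count of 1 became 0 after quantile normalisation, with no filter, with the mean of a gene's probe sets and with the replicate block, and ranged from 0 to 2 with 1 array left out. The causes were not tested. For alternatives other than quantile normalisation the share of all probe sets that passed is not given, here or below. Those counts thus do not show whether the factors moved differently from all probe sets.

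With 1 array left out the count ranged from 10 to 21 in yak against cattle, from 15 to 27 in buffalo against cattle, from 16 to 23 in buffalo against yak and from 24 to 32 among the 5 groups. The other alternatives kept these counts within 1.5 times, though the split of higher against lower in buffalo turned from 6 and 18 to 14 and 9 with quantile normalisation. Of 75 gene and comparison pairs named with values on every array, 0 changed sign among those called. Of the 38 that passed, 23 kept the call in every alternative and 15 lost it in at least 1, and of the 37 that did not pass, 7 did in at least 1.

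The replicate numbers do not pair the animals: of 30 pairs of same-numbered arrays in different groups 5 had a correlation of deviations over 0.1, with a range of -0.33 to 0.15. With the replicate number as a block the counts were 0 for castrated against intact males, 1 for females against intact males, 0 for females against castrated males, 17 in yak, 23 in buffalo, 21 for buffalo against yak and 29 among the 5 groups. In buffalo against cattle the block took the call from EEF1E1 (adjusted p = 0.0612 in limma) and EIF4E3 (0.0616) and gave it to EEF1A2 (0.0263).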
